A study of Mus musculus with 8 samples.

Results

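Piwi proteins are germline Argonautes that carry Piwi-interacting RNAs (piRNAs), and a set of 8 genes for mouse Piwi proteins and their biogenesis partners was followed here in germ cells of Sam68 knockout mice. The genes were taken by symbol from the deposited table of normalized counts, in which all 8 were found, each as a single model, among 56324 gene models. They are the Piwi genes Piwil1, Piwil2 and Piwil4, the putative RNA helicase gene Mov10l1, the mitochondrial nuclease gene Pld6, the zinc finger cofactor gene Gtsf1, and the genes Mael and Asz1 of germ granule proteins. Libraries came from cells labelled spermatids (4 libraries) and from cells labelled spermatocytes (4 libraries), all Sam68 -/-, on a C57BL/6 background, from males of 12 weeks, enriched by sedimentation at unit gravity. Sam68 is the RNA-binding protein encoded by Khdrbs1, the series concerns its part in forming RNA 3' ends, and its design also names wild-type mice, which are not analysed here, so that the comparison made is that of cell types. Whether the libraries of a cell type stem from different animals is not in the labels, and p-values then measure only how these samples vary, which may be technical variation.

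In the testis, long precursor transcripts are moved into perinuclear and mitochondria-associated granules, where MOV10L1 binds them. PLD6 on the outer mitochondrial membrane cleaves them, and ASZ1 takes part in the mitochondria-associated granules. Piwi proteins loaded with the trimmed products cut complementary RNAs, transposon transcripts among them, and GTSF1 is known to promote that cut. PIWIL1 (MIWI) acts in late meiosis and in round spermatids, PIWIL2 (MILI) from fetal germ cells onward, and PIWIL4 in fetal prospermatogonia, while MAEL is needed for transposon silencing and for meiosis in the male.

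Read totals recovered from the table were 60673309 to 93975960 in spermatid libraries and 49000266 to 78060212 in spermatocyte libraries. Khdrbs1 itself had 815 ± 233 normalized counts in spermatids and 4133 ± 676 in spermatocytes (SD, n = 4 each). The model covers the entire gene, so its reads may stem from outside the deletion and do not check the genotype label. Of the 10 spermatid markers all 10 were called higher in spermatids, with summed levels of 498110.3 to 599080.3 normalized counts there, against 17894 to 33629 in spermatocytes. Of 8 matched spermatocyte markers 3 were called lower, with sums of 69556 to 81506 in spermatids and 100951.04 to 172705 in spermatocytes. Markers of other cell types differed too, and in no list was a matched marker at 0 in all libraries. All 10 Sertoli markers were called lower (sums of 2046 to 7561 in spermatids and 31837 to 163178 in spermatocytes), as were all 6 matched Leydig markers (195 to 1161 against 3621 to 7352). Of 9 macrophage and blood markers 7 were called higher (sums of 2824 to 5733 against 122 to 180.0, with Hba-a1 at 0 in 7 libraries), of 7 peritubular and endothelial markers 5 were higher and 1 lower (sums of 2121 to 2745 against 613 to 1076), and of 10 spermatogonial markers 5 were higher (sums of 2830 to 6311 against 1132 to 2418). The part of these differences in the results below was not tested, except where a library is left out. In bulk samples, fewer cells of a type and less RNA per cell cannot be told apart.

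Sequence before the RefSeq start of 4 of the genes is shown to let the MYB motifs searched be seen in place: AACGG, the core that MYB factors bind, in Piwil1 and Mov10l1, the longer AACNGNC alone in Mael, and neither in Gtsf1. The transcription factor A-MYB (Mybl1) is known to drive piRNA pathway genes in mouse pachytene spermatocytes. The stretches come from the 250 bases before each RefSeq start (GRCm38.p6) and stop before the first exon of the gene in GENCODE M21. They are given in the gene's own sense, with matches to AACGG or AACNGNC on either strand in capitals, and overlapping matches share capitals. The windows are chr5:128735996-128736173 on the plus strand for Piwil1, chr15:88982744-88982907 on the plus strand for Mov10l1, chr1:166238748-166238994 on the minus strand for Mael and chr15:103430471-103430677 on the minus strand for Gtsf1. The RefSeq start of Piwil1 lies inside its deposited model, which begins farther upstream, and the first bases of its stretch overlap an unnamed deposited model.
Piwil1: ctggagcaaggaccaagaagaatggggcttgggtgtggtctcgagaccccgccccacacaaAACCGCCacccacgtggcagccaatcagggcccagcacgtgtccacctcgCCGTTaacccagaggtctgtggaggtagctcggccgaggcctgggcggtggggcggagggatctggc
Mov10l1: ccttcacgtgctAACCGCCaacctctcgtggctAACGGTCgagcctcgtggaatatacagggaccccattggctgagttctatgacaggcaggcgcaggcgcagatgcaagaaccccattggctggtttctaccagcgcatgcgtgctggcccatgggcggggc
Mael: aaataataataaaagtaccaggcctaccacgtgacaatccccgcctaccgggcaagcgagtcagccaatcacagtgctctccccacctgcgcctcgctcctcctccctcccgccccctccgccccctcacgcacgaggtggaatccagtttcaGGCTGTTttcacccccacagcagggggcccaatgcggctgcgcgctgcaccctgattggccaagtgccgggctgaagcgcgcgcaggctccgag
Gtsf1: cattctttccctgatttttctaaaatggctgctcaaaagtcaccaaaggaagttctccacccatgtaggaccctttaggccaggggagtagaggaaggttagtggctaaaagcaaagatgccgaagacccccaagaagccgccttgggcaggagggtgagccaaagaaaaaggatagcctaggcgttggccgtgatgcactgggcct

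Over windows from 250 bases before to 50 after the start, AACGG was found for 3 of the 7 genes with an entry (Piwil1, Mov10l1 and Pld6), against 17.4% of 32851 promoters in the RefSeq table. For Pld6 the match lay in the window of a RefSeq start inside the gene and not in that of the outer start. A gene was counted where any of its windows held a match, while the share of all promoters counts each window singly. The shares of genes and of promoters here therefore differ in unit. AACNGNC was found for Piwil1, Mov10l1, Pld6 and Mael, 4 of 7, against 32.8% of all promoters. TGACG, the core of the cyclic AMP response element, was found for 0 of the 7 genes, against 20.8% of all promoters. Among the other piRNA pathway genes with an entry, the Tudor domain genes included, 8 of 19 held AACGG and 11 of 19 held AACNGNC. Of these 19 genes, Tdrd1, Tdrd5, Tdrd7, Ddx4, Henmt1, Exd1, Btbd18, Prmt5 and Dnmt3l held the motif TGACG, and the others did not. The motif was thus missing from the 7 genes but not from the wider pathway. By direction of change, over the 19 genes and the 7, AACGG was found for 5 of 13 genes called lower in spermatids. It was found for 1 of 3 called higher (Dnmt3l) and for 5 of 7 not called. AACNGNC was found for 9 of 13 called lower, 1 of 3 called higher and 4 of 7 not called. Piwil1, Mov10l1, Pld6, Tdrd5 and Tdrd12, all called lower, held AACGG, while Tdrd1, Stk31 and Prmt5, among others called lower, did not. Ddx4, Ddx25 and Tdrd7, not called, held it, as did Tdrd9 and Fkbp6, which some alternatives called lower. Tdrd1, Stk31 and Tdrd7 held AACNGNC, and Prmt5, Ddx4 and Ddx25 did not. Gtsf1, Asz1 and Piwil4 held none of the 3 motifs in these windows. A match describes letters in a window and is not a binding site.

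Spermatids held far less RNA of the Piwi gene Piwil1 and of the nuclease gene Pld6 than spermatocytes, less of Piwil2 and Mov10l1, and more of Gtsf1. Of the 8 genes 7 were tested, having 10 or more normalized counts in 4 or more libraries. A call needed an adjusted p below 0.05 (limma, Benjamini-Hochberg over 28735 models) together with a log2 change of 1 or more in either direction. By this rule 5 of the 7 were called, against 62.3% of all models tested. Of these 4 genes fell (Piwil1, Pld6, Piwil2 and Mov10l1), against 29.8% of models, and 1 rose (Gtsf1), against 32.5%. Asz1 and Mael were not called, although in this fit both passed the adjusted p alone, as did 72.3% of all models. Neither passed it in all alternatives. The same 4 genes lay lower in every spermatid library than in any spermatocyte library, as did 32.2% of models, and Gtsf1 lay higher in every spermatid library, as did 34.2%, so that 5 of 7 showed no overlap, against 66.4% of models. The median log2 fold change of the 7 was -1.50, beside -0.01 over all models tested. Most of the transcriptome differed between these cells, and the share of the genes that was called was close to that background.

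**Figure D1:**
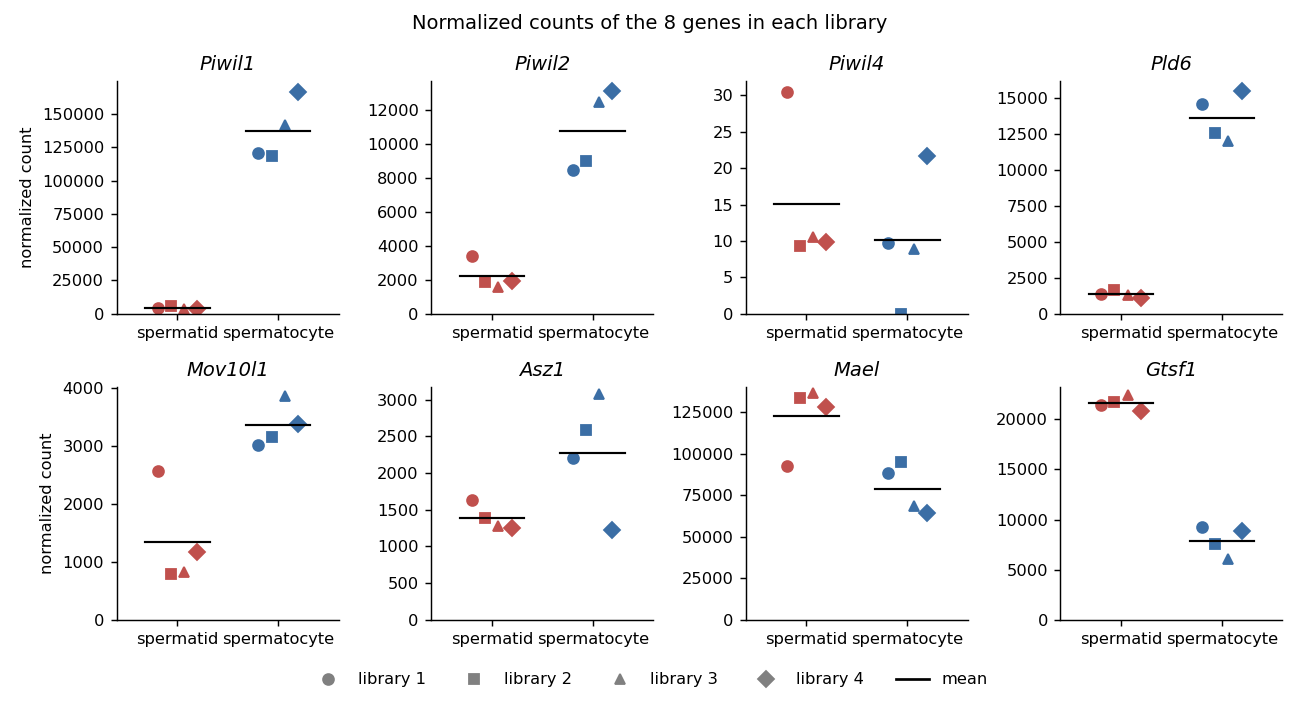
Normalized counts (y axis, linear, from 0) of each of the 8 genes in the 4 spermatid libraries (left) and the 4 spermatocyte libraries (right) of each panel. Symbols mark libraries 1 to 4 and bars the mean. Piwil1, Piwil2, Pld6 and Mov10l1 lie lower and Gtsf1 higher in all spermatid libraries, while spermatid library 1 stands high for Piwil2, Piwil4 and Mov10l1.

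Among the Piwi genes, Piwil1 (chromosome 5, 128702524 to 128755474, mm10, plus strand) fell most. It had 3928, 5835, 3574 and 3686 normalized counts in spermatid libraries 1 to 4, against 120630.4, 118349, 141922 and 166551 in spermatocyte libraries 1 to 4. Every spermatocyte library thus held far more than the highest spermatid library, which was library 2. The means were 4256 ± 1063 in spermatids and 136863 ± 22459 in spermatocytes (SD, n = 4 each), and the log2 fold change was -5.02 ± 0.20 (SE, limma adjusted p = 1.4e-09). In 22 alternative analyses it lay between -5.46 and -4.84 and was called in all 22. An unnamed model and Rimbp2 overlap the locus, with averages over the 8 libraries of 213 normalized counts for the unnamed model and 97.9 for Rimbp2.

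Piwil2 (chromosome 14, 70372478 to 70429094, minus strand) had 3423, 1862, 1596 and 1929 normalized counts in spermatid libraries 1 to 4, against 8463, 8999, 12433 and 13117 in spermatocyte libraries 1 to 4. The groups did not overlap, and spermatid library 1 was the highest of its group. This gave a log2 fold change of -2.33 ± 0.25 (SE, limma adjusted p = 3.8e-06), and -2.56 without spermatid library 1. In spermatid library 1 each of the 10 spermatogonial markers, such as Stra8 and Sohlh2, was also at its highest among spermatid libraries. Their summed level there was 6311 normalized counts, against 2830 to 3668 in the others. The sums of macrophage and blood (5733), Leydig (1161), Sertoli (7561) and peritubular and endothelial markers (2745) were highest in that library too. Of 8 spermatocyte markers 4 were highest there too, but Ccna1 (13016), Mybl1 (3371) and Spag6 (15776) were at their lowest among spermatid libraries. The summed level of the 8 was not the highest there (77489 normalized counts, against 81506 in spermatid library 2).

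Piwil4 (chromosome 9, 14696231 to 14740745, minus strand) was close to the limit of detection. It had 34, 10, 7 and 9 reads in spermatid libraries 1 to 4, against 12, 0, 8 and 19 reads in spermatocyte libraries 1 to 4. A count of 0 in spermatocyte library 2 allows up to 2.94 normalized counts (3 reads), for counting error only. As normalized counts the spermatid libraries held 30.4, 9.35, 10.5 and 9.80, and the spermatocyte libraries 9.67, 0, 8.95 and 21.7. The groups overlapped, and the means, 15.02 ± 10.3 in spermatids and 10.1 ± 8.90 in spermatocytes (SD, n = 4 each), were not told apart by an exact two-sided permutation test (p = 0.486). Only 3 libraries reached 10 normalized counts, so Piwil4 was not among the models tested. With no filter its log2 fold change was 1.02 ± 0.84 (SE, limma adjusted p = 0.32). The antisense gene Gm10706 shares 137 exonic bases with Piwil4 in GENCODE M21, and its own model averaged 0.280 normalized counts.

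The balance of the Piwi genes differed between the cell types. Per kilobase of exon, Piwil1 made up 58.0%, 79.1%, 73.0% and 69.8% of the summed Piwi level in spermatid libraries 1 to 4, against 94.5%, 94.1%, 93.3% and 93.9% in spermatocyte libraries 1 to 4. Piwil2 made up 41.7%, 20.8%, 26.9% and 30.1% in the spermatid libraries and 5.47%, 5.90%, 6.73% and 6.10% in the spermatocyte libraries. The lowest Piwil2 share among spermatids was above the highest among spermatocytes, with means of 29.9% ± 8.76 in spermatids and 6.05% ± 0.53 in spermatocytes (SD, n = 4 each). The exact permutation test, two-sided, gave p = 0.0286, the smallest this design allows. This result follows from the fold changes of Piwil1 and Piwil2 given above and adds no separate support. Shares within a library do not depend on the scaling between libraries. They do depend on the exon lengths taken from GENCODE M21, 4358 bases for Piwil1, 5287 for Piwil2 and 5385 for Piwil4.

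Of the biogenesis factors, Pld6 (chromosome 11, 59783893 to 59787657, minus strand), which encodes the nuclease of the mitochondrial surface, fell most. It had 1375, 1655, 1263 and 1082 normalized counts in spermatid libraries 1 to 4, against 14520.3, 12549, 11959 and 15430 in spermatocyte libraries 1 to 4. The lowest spermatocyte library held several times the highest spermatid library. Pld6 had a log2 fold change of -3.35 ± 0.18 (SE, limma adjusted p = 1.0e-08), and between -3.80 and -3.25 in all alternatives. No other gene model of the table overlaps it.

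Mov10l1 (chromosome 15, 88982908 to 89055152, plus strand), whose protein binds piRNA precursors, had 2563, 784, 815 and 1174 normalized counts in spermatid libraries 1 to 4. Spermatocyte libraries 1 to 4 held 3018, 3157, 3854 and 3376. Spermatid library 1 came close to the spermatocyte range and the other spermatid libraries lay far under it. Mov10l1 had a log2 fold change of -1.50 ± 0.32 (SE, limma adjusted p = 0.0011), and -1.88 without spermatid library 1. As for Piwil2, that library was the one with the highest spermatogonial markers among the spermatids. Its Sertoli, Leydig, macrophage and blood, and peritubular and endothelial sums were the highest as well. The part of any of these in the value was not tested.

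Asz1 (chromosome 6, 18050964 to 18109062, minus strand), an ankyrin repeat protein of the granules between mitochondria, had 1633, 1386, 1285 and 1248 normalized counts in spermatid libraries 1 to 4, against 2211, 2586, 3080 and 1231 in spermatocyte libraries 1 to 4. The groups overlapped through spermatocyte library 4 alone. The log2 fold change of -0.64 ± 0.26 (SE, limma adjusted p = 0.041) did not reach the fold threshold. Without spermatocyte library 4 it was -0.91 (limma adjusted p = 8.8e-04), which is not called either. Scaling to equal total reads gave -1.08, quantile normalization -1.01 and removal of the trend in GC content -1.92, and in each of these it was called lower. In spermatocyte library 4, 5 of 8 spermatocyte markers were also at their lowest among spermatocyte libraries, Sycp1 among them at 1653 normalized counts. Ccna1 (25279), Pou5f2 (14909) and Spag6 (36360) were instead at their highest there.

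Mael (chromosome 1, 166201372 to 166238744, minus strand) stayed abundant in both cell types. Spermatid libraries 1 to 4 held 92389, 133465, 136420.5 and 128145 normalized counts, and spermatocyte libraries 1 to 4 held 88480, 94987, 68361 and 64025. Spermatid library 1 fell within the spermatocyte range and the other spermatid libraries lay above it. The log2 fold change of 0.64 ± 0.20 (SE, limma adjusted p = 0.011) missed the fold threshold and was called in 0 of 22 alternatives. It was 0.20 when scaled to equal total reads, 0.24 with quantile normalization and 0.03 with the GC trend removed, with limma adjusted p-values of 0.15, 0.090 and 0.91.

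Gtsf1 (chromosome 15, 103402461 to 103430427, minus strand) was the gene that rose. It had 21395, 21691, 22377 and 20844 normalized counts in spermatid libraries 1 to 4, against 9204, 7549, 6043 and 8829 in spermatocyte libraries 1 to 4. The spermatid libraries varied little, with a coefficient of variation of 2.96%, against 18.1% in spermatocytes. The log2 fold change was 1.47 ± 0.17 (SE, limma adjusted p = 7.7e-06). It was 1.03 and called with equal total reads, but 0.90 with quantile normalization and 0.91 with the GC trend removed, both under the fold threshold. Across these scalings the median of all models tested moved to -0.44 with equal total reads and to -0.36 with quantile normalization, and over the 17975 models with a GC value it was 0.25 before and -0.26 after the GC trend was removed.

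**Figure D2:**
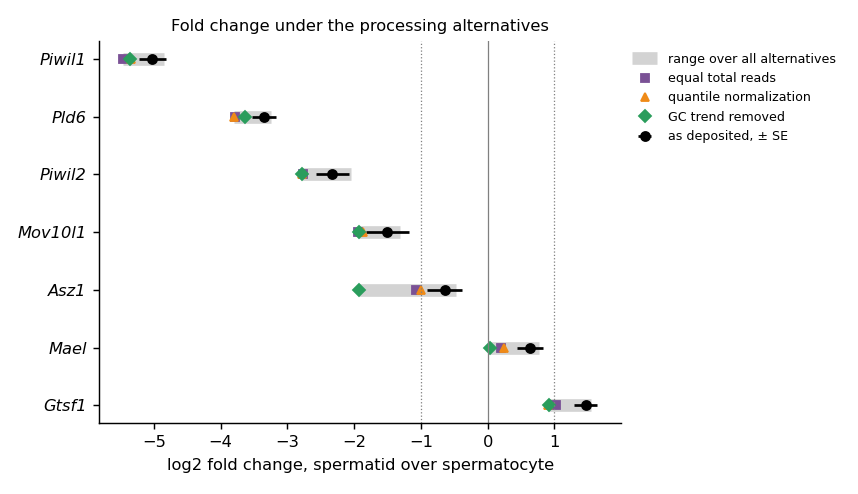
Log2 fold change of spermatids over spermatocytes (x axis) for the 7 tested genes. Black points with bars are the values as deposited with SE, grey bars the range over 22 alternatives, coloured symbols 3 of these, and dotted lines the fold threshold. Piwil1, Pld6, Piwil2 and Mov10l1 stay below -1 throughout, while Asz1 (-1.92 to -0.47) and Gtsf1 (0.90 to 1.55) cross a dotted line.

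Levels of different genes were compared per kilobase of exon. In spermatids Mael led with 70747 ± 11790 normalized counts per kilobase, followed by Gtsf1 with 15523 ± 460 (SD, n = 4 each). Piwil1 (977 ± 244), Pld6 (765 ± 137), Asz1 (491 ± 61.2), Piwil2 (417 ± 156) and Mov10l1 (319 ± 200) followed, and Piwil4 came last at 2.79 ± 1.91 normalized counts per kilobase (SD, n = 4 each). The ranges of Piwil1 and Pld6 overlapped over the libraries, as did those of Piwil2 and Mov10l1, but within each of the 4 libraries Piwil1 was above Pld6 and Piwil2 above Mov10l1. Asz1 was above Piwil2 in 3 of 4 libraries, so that this order is not settled. In spermatocytes Mael (45564 ± 8706) and Piwil1 (31405 ± 5154) had overlapping ranges at the top, with Mael above Piwil1 in 3 of 4 libraries, and Pld6 (7749 ± 929), Gtsf1 (5688 ± 1029) and Piwil2 (2034 ± 447) followed without overlap (normalized counts per kilobase, SD, n = 4 each). Asz1 (805 ± 277) and Mov10l1 (801 ± 87.6) could not be ordered (Asz1 was higher in 3 of 4 libraries), and Piwil4 was last at 1.87 ± 1.65. Piwil1 thus stood beside Mael at the head of the set in spermatocytes, at percentile 99.7 of the models with an exon length, and stood at percentile 78.9 in spermatids, where Mael stood at 99.8 and Gtsf1 at 98.0.

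**Figure D3:**
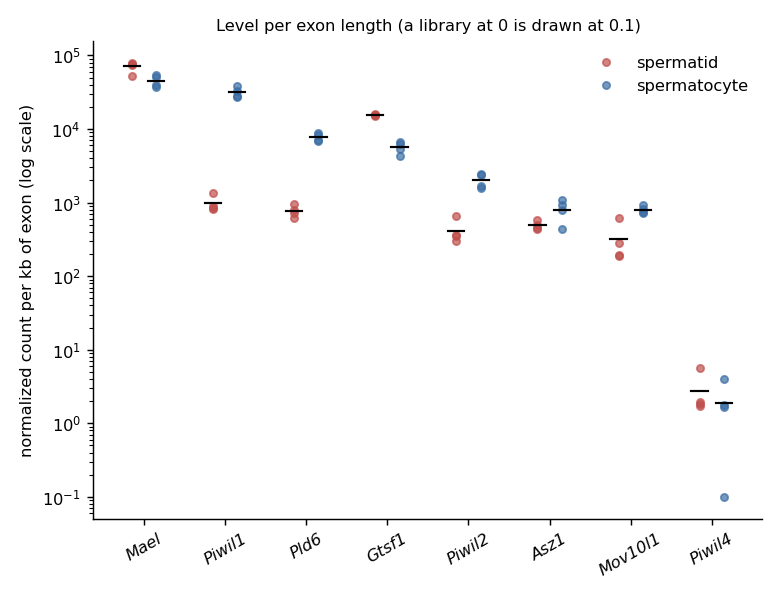
Normalized count per kilobase of exon (y axis, log scale) of the 8 genes in spermatid libraries (left of each pair) and spermatocyte libraries (right), with bars at the mean of 4. The library with 0 reads of Piwil4 is drawn at 0.1. Mael has the highest mean in both cell types, with ranges that overlap those of Piwil1 in spermatocytes, and Piwil1 averages 977 in spermatids and 31405 in spermatocytes.

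To see whether the genes moved together, each was set against Piwil1 within every library, a log2 ratio from which the scaling factor of the library all but cancels. For all 6 ratios the spermatid libraries lay above all spermatocyte libraries, and the exact permutation test, two-sided, gave p = 0.0286 for each, also after adjustment over the 6 ratios, the smallest p the design allows. Relative to each of the other 6 genes, Piwil1 was therefore lower in spermatids. Piwil1 had the largest fall of the tested genes, and each difference restates fold changes given above. All 6 ratios share Piwil1, so the tests are not independent and add no separate support. The log2 ratio of Pld6 to Piwil1 differed least, with means of -1.65 ± 0.17 in spermatids and -3.32 ± 0.22 in spermatocytes. That of Piwil2 averaged -0.99 ± 0.60 in spermatids and -3.68 ± 0.13 in spermatocytes. That of Mov10l1 averaged -1.82 ± 0.95 in spermatids and -5.34 ± 0.19 in spermatocytes. For Asz1 the means were -1.59 ± 0.34 in spermatids and -5.97 ± 0.75 in spermatocytes (SD, n = 4 each). The ratios are of counts that are not divided by exon length, so their sign does not say which gene had more transcripts. Mael and Gtsf1 differed most. The log2 ratio of Mael to Piwil1 was 4.56, 4.52, 5.25 and 5.12 in spermatid libraries 1 to 4, against -0.45, -0.32, -1.05 and -1.38 in spermatocyte libraries 1 to 4. That of Gtsf1 was 2.45, 1.89, 2.65 and 2.50 in spermatid libraries, against -3.71, -3.97, -4.55 and -4.24 in spermatocyte libraries. With any 1 library left out the smallest p the exact test allows is 0.0571, and each ratio reached it.

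**Figure D4:**
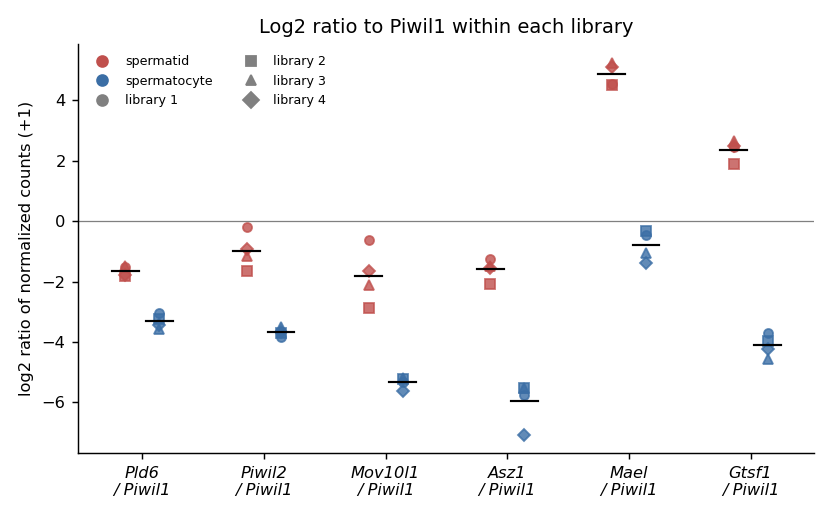
Log2 ratio of normalized counts (plus 1) of 6 genes to Piwil1 within each library (y axis), for spermatids (left of each pair) and spermatocytes (right). Bars are means of 4 libraries and symbols mark the library number. The groups do not overlap for any ratio, and the gaps between them are widest for Mael and Gtsf1. Counts are not divided by exon length, so the line at 0 does not mark equal levels.

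The other genes of the pathway included calls in both directions. Of 9 tested Tudor domain genes, whose proteins bind methylated arginines of Piwi proteins, 5 fell and 1 rose, against 29.8% lower and 32.5% higher of all models, with a median log2 fold change of -1.03 beside -0.01 over all models. Tdrd5 fell to 952 ± 191 normalized counts in spermatids, against 21745 ± 1508 in spermatocytes, and Tdrd1 to 2944 ± 364 in spermatids, against 39205.5 ± 5009 in spermatocytes (SD, n = 4 each). Their log2 fold changes were -4.53 ± 0.18 for Tdrd5 and -3.73 ± 0.17 for Tdrd1 (SE; limma adjusted p = 1.4e-09 and 2.4e-09). Stk31 (-2.24), Tdrd12 (-1.40) and Tdrkh (-1.03) fell as well on the log2 scale, the last just past the threshold. Tdrkh was at -0.92 without spermatocyte library 3, -0.985 without spermatid library 2 and -0.996 without spermatid library 3, and not called in these. Rnf17, of the Tudor list, rose to 28547 ± 2465 normalized counts in spermatids, against 13391 ± 4939 in spermatocytes (SD, n = 4 each). Its log2 fold change was 1.19 ± 0.28 (SE; limma adjusted p = 0.0024), and 0.85 and not called without spermatocyte library 4. It was at 0.75 when scaled to equal total reads, 0.64 with quantile normalization and 0.26 with the GC trend removed, and not called in any of these. Tdrd6 (-0.21), Tdrd7 (-0.06) and Tdrd9 (-0.97) were not called, although Tdrd9 reached -1.41, -1.50 and -1.36 under these scalings in the same order and was then called lower, as it was without spermatid library 1 or spermatocyte library 2 (-1.01 in both).

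Of 14 tested genes of the pathway outside the Tudor list, 7 fell and 3 rose, against the same 29.8% and 32.5% of all models, with a median log2 fold change of -1.01. With equal total reads or the GC trend removed 9 were called lower, and with quantile normalization 8. The largest falls were of Pnldc1, which trims piRNA 3' ends (-2.05), of the arginine methyltransferase gene Prmt5 (-1.99) and of Exd1 (-1.89). Mybl1 fell by 1.12 on the log2 scale, to 4069 ± 828 normalized counts in spermatids, against 9276 ± 3474 in spermatocytes (SD, n = 4 each; limma adjusted p = 0.0034), with overlapping groups, and lost the call without spermatocyte library 2 (-0.92). Those that rose were a model of Tex15 (4.91), the DNA methylation cofactor gene Dnmt3l (4.03) and Btbd18 (2.03), listed under its older symbol Gm13718. Of 2 models of Tex15 only the one with the higher mean was read. Dnmt3l had 889 ± 137 normalized counts in spermatids and 55.9 ± 18.9 in spermatocytes (SD, n = 4 each). The helicase gene Ddx4 was not called, at 63481 ± 9033 normalized counts in spermatids and 54159 ± 12306 in spermatocytes (SD, n = 4 each), nor were Ddx25 (0.40), Fkbp6 (-0.91) and Morc1 (-0.60). Fkbp6 was called lower after scaling to equal total reads (-1.34), after quantile normalization (-1.27), with the GC trend removed (-1.25) and without spermatid library 1 (-1.14), spermatocyte library 1 (-1.04) or spermatocyte library 2 (-1.03). Morc1 was called lower after scaling to equal total reads (-1.04) and with the GC trend removed (-1.22). Wdr77, Dnmt3c and Spocd1 were not matched to a model, and Nanos2 did not pass the filter.

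**Figure D5:**
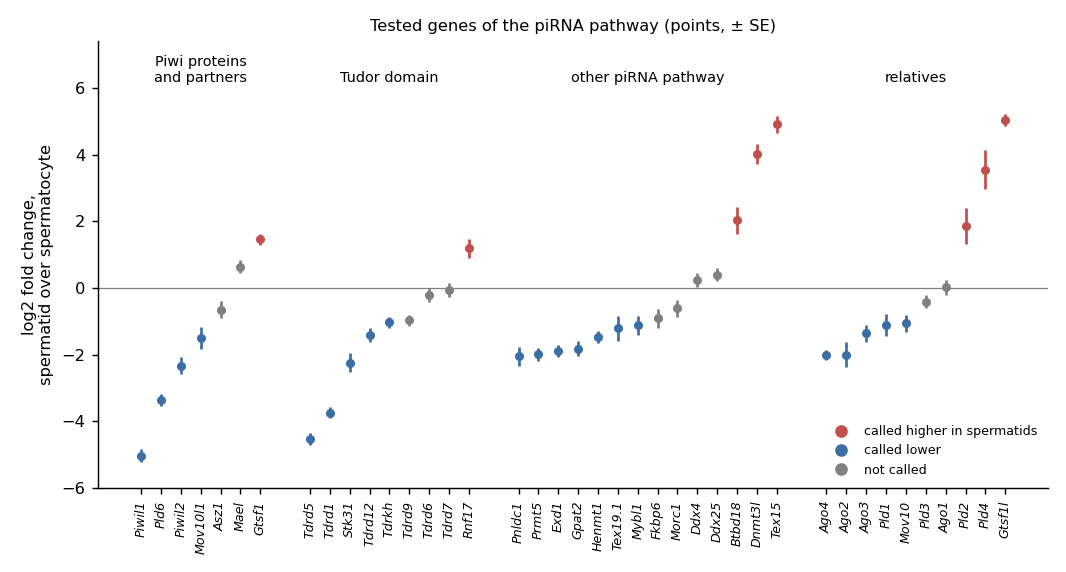
Log2 fold change of spermatids over spermatocytes (y axis, points with SE) for the tested genes of each list, sorted within the list. Red points were called higher, blue points lower and grey points were not called. Each list holds genes on both sides of 0, from Piwil1 at -5.02 to Gtsf1l at 5.04.

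Relatives of the genes were read from the same fit. Gtsf1l, a paralog of Gtsf1, rose to 52893 ± 10604 normalized counts in spermatids, against 1585 ± 66.9 in spermatocytes (SD, n = 4 each), which is a log2 fold change of 5.04 ± 0.18 (SE; limma adjusted p = 9.5e-10). Among the Argonautes that carry microRNAs, Ago4 (-2.01), Ago2 (-1.995) and a model of Ago3 (-1.35) fell on the log2 scale. Ago1 was not called (0.03, with a sign that turned to -0.41 with equal total reads). Of 2 models of Ago3 only the one with the higher mean was read. The helicase gene Mov10 fell by 1.06 on the log2 scale, and lost the call without spermatocyte libraries 3 and 4 (-0.59), without library 3 (-0.85) and without library 4 (-0.95). All 10 Sertoli markers were at their highest in spermatocyte library 3, with a sum of 163178 normalized counts, and their part in the fall of Mov10 was not tested. In the family of Pld6, Pld1 fell (-1.11, and -0.81 and not called without spermatocyte library 3). Pld4 (3.55, and 4.15 without spermatocyte library 3) and Pld2 (1.87) rose. Pld2 was low, at 50.1 ± 26.0 normalized counts in spermatids and 15.4 ± 14.9 in spermatocytes (SD, n = 4 each), with overlapping groups. With the filter of 50 normalized counts Pld2 was not tested. Pld4, which is known from phagocytes, had 121 ± 23.5 normalized counts in spermatids and 13.8 ± 14.5 in spermatocytes (SD, n = 4 each), beside summed macrophage and blood markers of 2824 to 5733 in spermatids and 122 to 180.0 in spermatocytes. The part of these markers in the rise was not tested. In all, 3 of 10 tested relatives rose, against 32.5% of all models, and 5 fell, against 29.8%, with a median log2 fold change of -0.73.

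Genes with the most similar profile were sought among 8184 models with an established symbol and a mean of 500 or more normalized counts, by the root mean square difference of log2 values over the 8 libraries, each profile centred on its mean. Nearest to Piwil1 were Bcl2l12 (difference 0.16), Fam13c (0.17) and the sulfotransferase gene Chst1 (0.19). Bcl2l12 had 373 ± 72.7 normalized counts in spermatids and 10762 ± 342 in spermatocytes (SD, n = 4 each). Nearest to Piwil2 were Nsfl1c (0.11), Akr1a1 (0.14) and Fam219b (0.15), and nearest to Mov10l1 were Nom1 (0.16), the nucleic acid binding protein gene Tsn (0.17) and the nucleoporin gene Nup54 (0.18). Pld6 was followed most closely by Tmem181b-ps (0.095), Ndnl2 (0.12) and Gmcl1 (0.13). Mael had AK129341 (0.069), the profilin gene Pfn4 (0.072) and Ccdc171 (0.082) beside it. For Gtsf1 these were Ltn1 (0.090), Ppp6r1 (0.12) and Atp9b (0.12), and for Asz1 the G protein gene Gnai3 (0.082), Gpcpd1 (0.094) and Mtpn (0.14). None of these is a gene of the pathway lists. Such likeness over 8 libraries of 2 cell types describes these samples only.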

How the data were processed

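Polyadenylated RNA of spermatids and spermatocytes was sequenced with a stranded kit, per the labels' protocols. The authors deposited a signal, the DESeq-normalized read count of each gene model, with mm10 positions, per the file headers; the submitters' processing notes list FastQC, Picard, SAMtools, STAR 2.4.0, DESeq and mm10. Which tool counted reads, and with which strand setting, is not given in the sources used here. Within each library 100% of values above 0 lay within 0.1 of a step from a whole read, which gave back the reads. The edgeR test on these reads called 9211 models higher and 8732 lower, against 9333 and 8563 by limma. The table holds 8 further per-sample columns, which were not used.

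Values were taken as log2(normalized count + 1), so that fold changes of low genes are understated. Of 56324 models, 28735 that had 10 or more normalized counts in 4 or more libraries were tested with limma 3.58.1 (trend, robust) in R 4.3.3 over all 8 libraries, with no covariate, and adjusted by Benjamini-Hochberg. Ratios, shares and the level of Piwil4 were compared by exact permutation tests (scipy 1.17.1). Alternatives were pseudocounts of 0.5 and 8, other filters, scalings and tests (edgeR 4.0.16, DESeq2 1.42.0), libraries left out, and removal of the trend with GC content, which 97.2% of tested models with a symbol allowed. Exon lengths and GC content came from GENCODE M21, promoters from RefSeq GRCm38.p6, which held no entry for Piwil2. No 2 libraries of a group agreed within sampling noise (smallest chi-square per degree of freedom 12.4). The limma step was tested on simulated counts in which few models were changed, all upward. In these data 72.3% of models passed the adjusted p, with calls both ways, a setting that the simulation did not cover.

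The genes and lists were chosen with earlier results of these data known. Named genes were the 8 genes, Khdrbs1, the called members of each list (the 3 largest changes each way where more than 8 were called) and the 3 genes nearest in profile. Other list members, Mybl1 and Ddx4 among them, and single marker genes were named after their values were seen.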

Additional observations from a re-analysis of the deposited data

Results flagged for a closer look

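Among 152 groups of 4 libraries examined (the genes named, the ratios and the marker lists in each cell type), 20 held a library whose gap to its nearest neighbour was large against the range of the group, where chance flags about 1 in 20. Of the 8 genes, Piwil1 was flagged at 5835 normalized counts in spermatid library 2 (3574 to 3928 in the other spermatid libraries) and Piwil4 at 30.4 in spermatid library 1 (9.35 to 10.5). The log2 ratio of Asz1 to Piwil1 was -7.08 in spermatocyte library 4 (-5.77 to -5.52 in the others).

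Spermatid library 1 stood apart for Pnldc1 at 303 normalized counts (130 to 157 in the other spermatid libraries), Gpat2 at 982 (501 to 549), Pld2 at 88.7 (32.7 to 41.4), Akr1a1 at 862 (366 to 450) and Mtpn at 5101 (3141 to 3329), all high, and for Dnmt3l at 685 (936 to 977), AK129341 at 45531 (70436 to 73763) and Ccdc171 at 3725 (5473 to 5609), all low. Spermatid library 2 stood apart for Fam13c at 45.8 (21.5 to 24.0) and for the mean log2 level of the Sertoli markers at 6.33 (7.71 to 7.85).

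Among spermatocytes, library 3 was low for Tdrd6 at 110177 normalized counts (168264 to 172818), Tdrd7 at 11831 (20296 to 21364), Ddx25 at 33482 (50462 to 51982), Ltn1 at 2627 (3823 to 3948) and Atp9b at 7612 (10645 to 10793). Library 1 was low for Tdrd5 at 19487 (22392 to 22604), and library 4 was high for Pld2 at 37.7 (6.87 to 8.95).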

How the results depend on the processing

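No paired analysis was possible because the labels give the libraries no shared replicate number. The 4 genes that fell were called in all 22 alternatives. With quantile normalization, equal total reads or the GC trend removed 5 genes were called lower, Asz1 among them. None of the 7 tested genes was called higher with quantile normalization or the GC trend removed (0 in both). Gtsf1 there stayed above 0 but under the fold threshold (0.90 and 0.91, limma adjusted p = 1.1e-04 and 4.7e-04). With these settings, with equal total reads or without spermatocyte libraries 3 and 4, 0 Tudor domain genes were called higher. Over all models, 14333 were lower with no filter on low values and 5470 with a filter of 50, and 5259 were higher with the GC trend removed. Over the models with a GC value and no correction, an alternative chosen after seeing the data, 3792 were lower and 6374 higher, so that the higher share of calls was 62.7% before and 47.5% after the correction. Without spermatocyte libraries 3 and 4, 3 relatives were called lower. The log2 ratios to Piwil1 were then higher in spermatids by 2.79 for Piwil2, 5.24 for Mael, 3.45 for Mov10l1, 1.50 for Pld6, 6.21 for Gtsf1 and 4.05 for Asz1. Each had an adjusted p of 0.133, the smallest the exact permutation test allows there. With 1 library left out these differences ranged from 2.43 to 2.92, 5.47 to 5.82, 3.12 to 3.88, 1.59 to 1.76, 6.34 to 6.65 and 4.01 to 4.54 in the same order, and the number of models called ranged from 9096 to 9376 higher and from 8339 to 8690 lower, Tudor genes from 0 to 1 higher and 4 to 6 lower, other pathway genes from 6 to 8 lower with 3 higher, and relatives from 3 to 5 lower. The log2 fold change of some genes that were not called turned its sign. With the scaling to equal totals, quantile normalization and the GC trend removed, in this order, it was -0.19, -0.19 and -0.51 for Ddx4, -0.036, -0.060 and -0.17 for Ddx25, and -0.41, -0.33 and -0.37 for Ago1. With 1 library left out it ranged from -0.074 to 0.15 for Ago1 and from -0.26 to 0.024 for Tdrd7. The cause of these changes was not tested. Depth limits Piwil4, with 60 reads over the spermatid and 39 over the spermatocyte libraries.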
